A study of Caenorhabditis elegans with 21 samples.

Results

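Cytochrome P450 enzymes are coded in the worm by the *cyp* genes, and every gene whose name in the deposited tables was *cyp-* followed by a number was taken as a member. There were 75 such genes among 24189 genes in all, 71 of them in both tables, 72 of 17720 genes in the adult table and 74 of 23184 in the L1 table. The members fell into 25 subfamilies, of which 13A and 33C held 11 genes each, 34A 9, and 14A, 25A and 35A 5 each. By WormBase identifier, 74 of the 75 carry the same *cyp* name in the WBcel235 annotation. The remaining gene, *cyp-34A4*, is named *dach-1* there and in the L1 table, so it counted as a member in adults only. The other P450 gene with a known hormone role, *daf-9*, has no *cyp* number in its name and is given below with related genes. Of the members, 38 lie in 11 runs of neighboring *cyp* genes on the chromosomes, the longest with 7 genes.

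The study starved wild-type (N2) *C. elegans* for 6 days at the first larval stage (L1) in 5 consecutive generations. After each starvation the animals were fed again, and all adults, starved as larvae or not, were on food when collected. Day 1 adults of the last starved generation were picked as sterile F4L1starved animals, which carried no eggs, or as fertile F4L1starved animals, which carried more than 5 eggs. They were set against control adults, always fed, that also carried more than 5 eggs. Because adults were picked by their eggs, the adult groups are selected animals, about 100 hermaphrodites pooled per library. L1 larvae descended from starved animals through 2 fed generations (F4L1starved + 3fed) and control L1 larvae were each collected without food, 18 hours after egg preparation, or with food, after 14 hours. About 10000 larvae were pooled per library. Each of the 7 groups had 3 libraries of whole animals, with 12187063 to 22942483 reads counted in adults and 25209530 to 53482585 in L1 larvae. Levels are given as normalized counts, in which the reads of each library were scaled by its size factor. Fold changes are on a log2 scale after adding 1 to each value, so those of low genes are understated. In whole animals, fewer cells of a type and less RNA per cell cannot be told apart.

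P450 enzymes are heme proteins of membranes that insert oxygen into small molecules, with electrons passed on by a reductase, in the worm EMB-8. Some make or break down the body's own lipids and steroid hormones, and others oxidize foreign compounds so that these can be conjugated and removed. In *C. elegans* many *cyp* genes are active in the intestine, and several of the 14A, 25A, 34A and 35A subfamilies are known to be induced by foreign compounds. By likeness to the vertebrate families, 43 members belong to CYP2-like subfamilies (14A, 33A to 33E, 34A, 35A to 35D and 36A), 19 to CYP3-like (13A, 13B, 25A and 43A) and 11 to CYP4-like ones (29A, 31A, 32A, 32B, 37A, 37B and 42A). *cyp-44A1*, related to mitochondrial P450 enzymes, and *cyp-23A1* were kept apart from these.

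The summed normalized count of all members was 20026, 16459 and 12904 in sterile F4L1starved adults, 7852, 7387 and 7338 in fertile F4L1starved adults and 7742, 7501 and 7739.7 in control adults. All 3 sterile libraries thus lay above every other adult library, with a mean 2.15 times that of control adults, and they also differed most among themselves. The sums of fertile F4L1starved and control adults overlapped (exact two-sided permutation test, p = 0.4, against p = 0.1 for sterile against control, the smallest that 3 libraries against 3 allow). Scaled to total reads instead, the mean of sterile adults was 1.82 times that of control adults. Per kilobase of coding sequence, the members with the highest mean level over the 3 adult groups were *cyp-35A2*, *cyp-31A5*, *cyp-31A2*, *cyp-35C1* and *cyp-25A1*. *cyp-31A5*, with a coding length of 924 nucleotides against 1485 in *cyp-31A2*, ranked 7 without length scaling. Which members made up the sum differed between groups. Per kilobase, the 31A subfamily made up 3.67% of the summed level in sterile F4L1starved adults, 30.2% in fertile F4L1starved adults and 39.7% in control adults. The 35A subfamily made up 18.9%, 9.31% and 9.24% in the same order.

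Sterile F4L1starved adults differed from control adults in most members. Of the 72 members of the adult table, 52 had a mean of at least 10 normalized counts and were tested, and 40 of these were higher and 6 lower in sterile animals (limma, adjusted p below 0.05). Over all genes tested, 83% passed the same test, 41.3% as higher and 41.8% as lower, so a call as such does not set the members apart. The members called were mostly higher (76.9% of those tested), and the median log2 fold change was 1.58 over the tested members against 0.14 over all genes tested. All 27 called CYP2-like members were higher, out of 29 tested. Values did not overlap between the groups for 44 members, where 86% of all genes had this. The test without a filter on low values gave 44 higher and 6 lower of 72. *cyp-14A3*, *cyp-34A10* and *cyp-35B1* passed the filter only through the sterile group, so for these a difference was built into the choice.

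**Figure D1:**
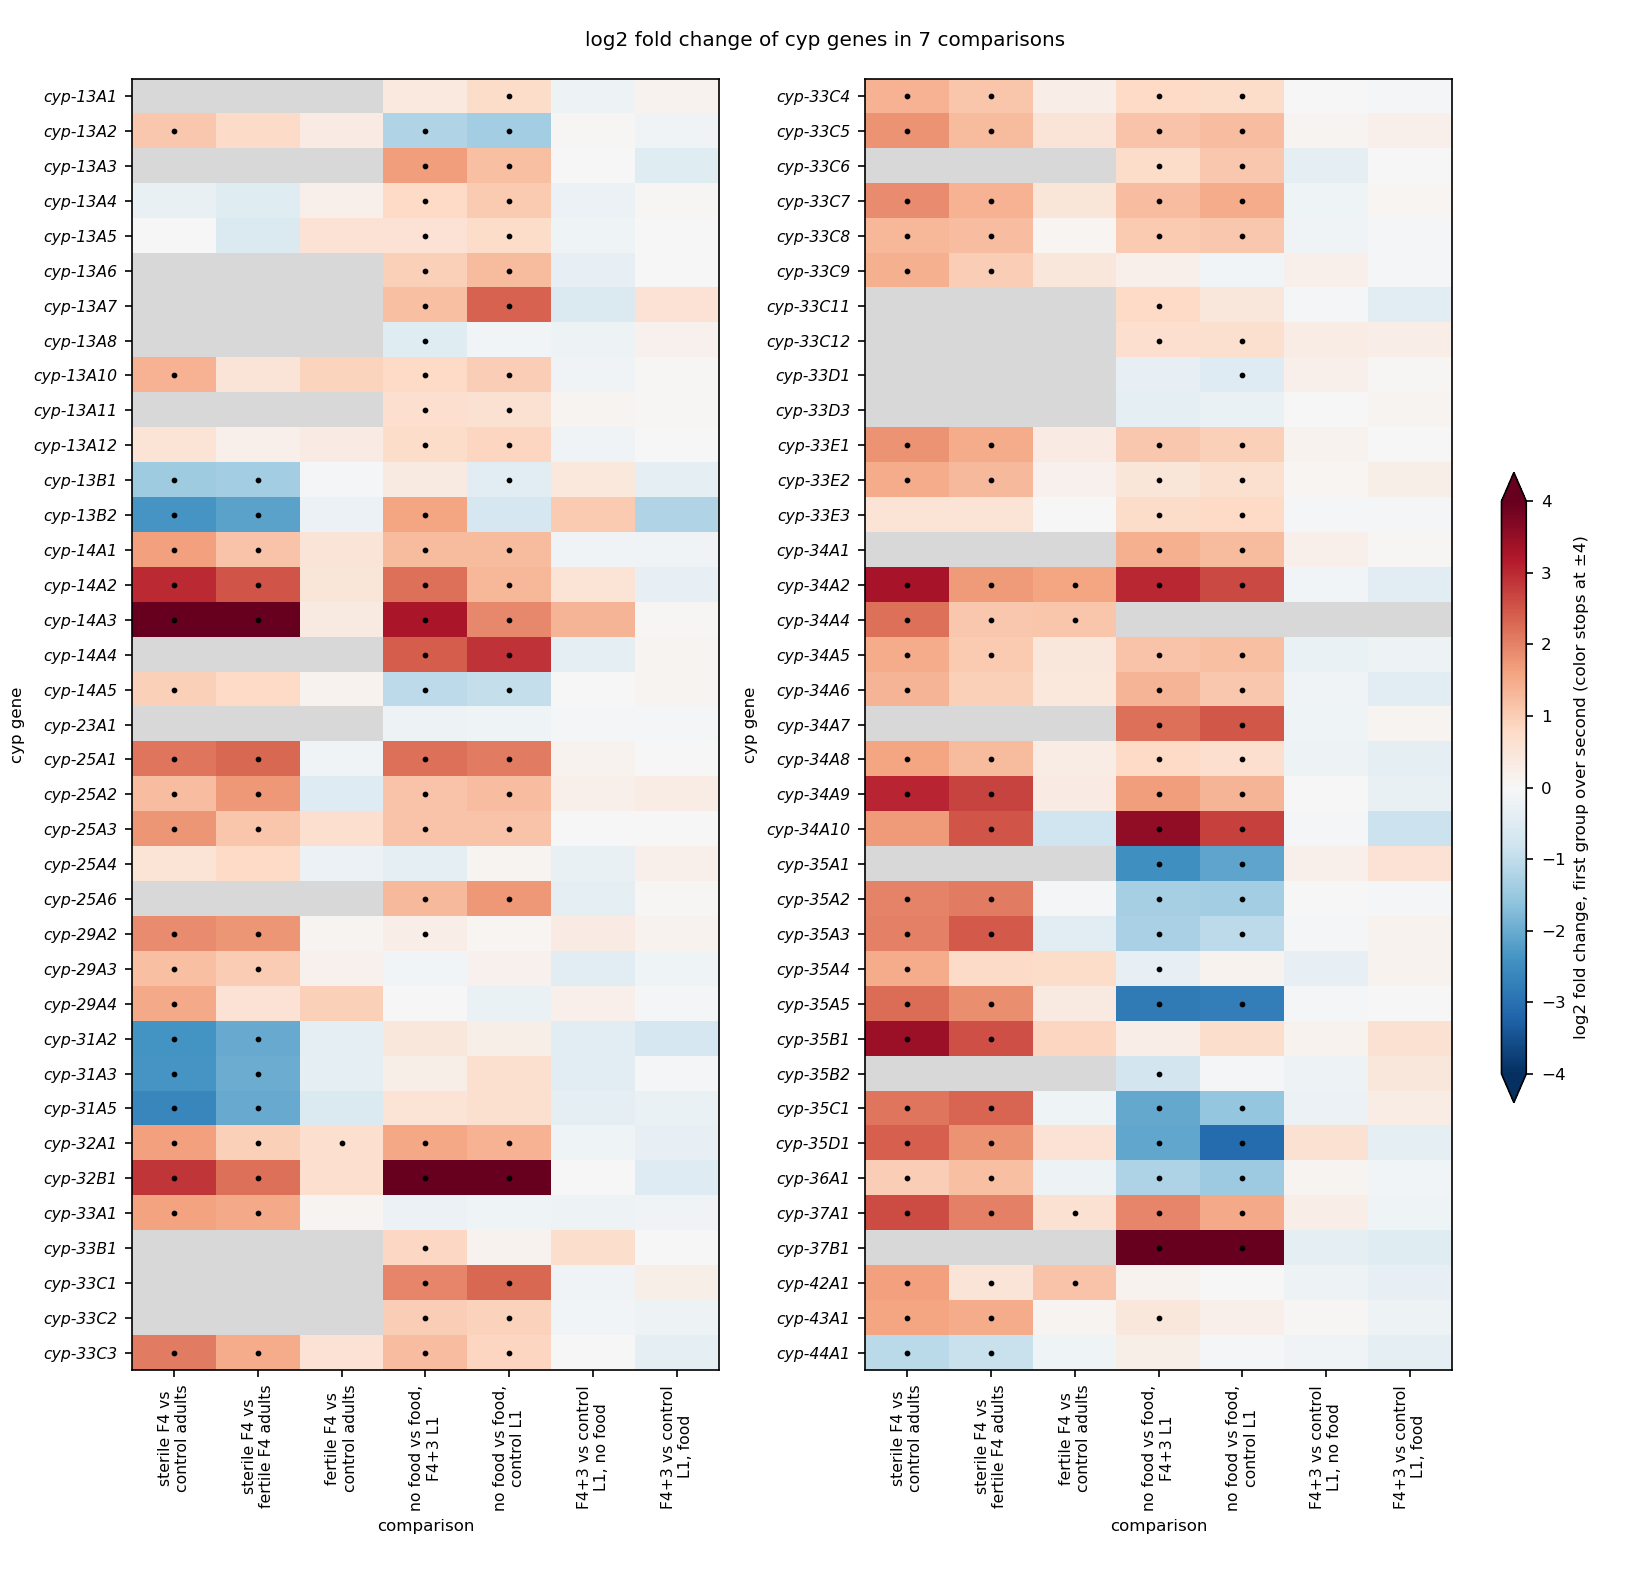
Log2 fold changes of the 74 *cyp* genes tested in at least 1 table (rows, in order of name) in 7 comparisons (columns), first-named group over second, with color from blue (lower) to red (higher), dots for an adjusted p below 0.05 in adults or below 0.1 in L1 larvae (limma), and gray for genes not tested in that table. The 3 rows of the 31A subfamily are blue in both columns of sterile adults, the tested 35A, 35C and 35D rows are red there and mostly blue in the 2 columns of no food against food, and the 2 columns of F4L1starved + 3fed against control hold no dot.

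The 6 members that were lower in sterile adults included the whole 31A subfamily. *cyp-31A2* and *cyp-31A3* act with EMB-8 in making lipids that the eggshell needs. *cyp-31A2* had 125, 295 and 223 normalized counts in sterile F4L1starved adults, 737, 825 and 933 in fertile F4L1starved adults and 1169, 1008 and 1044 in control adults. The sterile libraries lay below all others (log2 fold change -2.40, SE 0.25, adjusted p = 2.73e-06 against control; -2.03 against fertile, adjusted p = 2.09e-05). *cyp-31A3* had 119.5, 184 and 217 in sterile, 572, 721 and 733 in fertile and 965, 799 and 843 in control adults (log2 fold change -2.36, SE 0.20, adjusted p = 8.34e-07 for sterile against control). *cyp-31A5* had 93.0, 179 and 128 in sterile, 529, 544 and 506 in fertile and 858, 804 and 719.9 in control adults (log2 fold change -2.61, SE 0.20, adjusted p = 4.57e-07 for sterile against control). In all 3 genes the fertile libraries lay between the sterile and the control libraries without overlap. Of all genes tested, 51.1% had no overlap between fertile and control adults, and 78.5% between sterile and fertile adults. None of the 3 passed between fertile and control adults with all libraries in limma. The 3 genes are close relatives, and it is not stated how reads that match more than 1 of them were counted, so their values may not be independent of each other.

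The other 3 lower members were *cyp-44A1*, *cyp-13B2* and *cyp-13B1*. *cyp-44A1* had 189, 243 and 252 normalized counts in sterile F4L1starved adults, 366, 476 and 431 in fertile F4L1starved adults and 515, 435 and 483 in control adults (log2 fold change -1.07, SE 0.16, adjusted p = 4.93e-05 for sterile against control). *cyp-13B2* had 5.31, 46.03 and 27.4 in sterile, 89.8, 90.4 and 85.9 in fertile and 109.6, 91.7 and 110.3 in control adults (log2 fold change -2.36, SE 0.55, adjusted p = 0.00171 for sterile against control). In both genes the sterile libraries lay below all fertile and control libraries. *cyp-13B1*, with 30.6, 12.7 and 4.42 in sterile and 28.1, 35.6 and 41.1 in control adults, had groups that overlap (log2 fold change -1.42, SE 0.54, adjusted p = 0.0288). Its call was lost by edgeR (adjusted p = 0.108), by DESeq2 (0.0893) and with TMM scaling (0.0538), and without replicate 2 or 3 of either group (adjusted p from 0.0516 to 0.118).

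Markers of germ cells, oocytes and early embryos mostly moved in the same direction as the 31A genes. In this comparison 41.8% of all genes were lower and 41.3% higher. Of 10 genes of germ cells, 10 were lower in sterile F4L1starved than in control adults (median log2 fold change -1.67, summed normalized counts of 11641 to 19537 in sterile and 50047 to 58173 in control adults). Of 10 oocyte genes, 8 were lower and 1 was higher (median -2.68, sums of 67341 to 80899 and 163030.0 to 190997). Of 10 early embryo genes, 5 passed the filter and were tested, of which 4 were lower and 1 was higher. *med-1*, *med-2*, *tbx-38* and *hlh-27* were at 0 in all sterile libraries, which is given as a level only. Sperm genes went the other way, with 10 of 10 higher and sums of 6122 to 7510.3 in sterile and 35.6 to 155 in control adults. The part of germ cell, oocyte and embryo content in the values of the 31A, 13B and 44A genes was not tested.

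Members that were higher in sterile F4L1starved adults came from 18 of the 25 subfamilies, of which 23A, 33B, 33D and 37B had no member tested in adults. Of the 18, 35B was there through *cyp-35B1* alone. All 4 tested genes of 35A were higher, with a median log2 fold change of 2.01, and so were *cyp-35B1*, *cyp-35C1* and *cyp-35D1*. *cyp-35A2* had the highest mean level per kilobase over the 3 adult groups, but in fertile and in control adults *cyp-31A2* had higher counts. *cyp-35A2* had 3363, 2211 and 2035 normalized counts in sterile F4L1starved adults, 691, 448 and 657 in fertile F4L1starved adults and 561, 608 and 700.5 in control adults. Its sterile libraries lay far above all others, while the fertile and control libraries overlapped (log2 fold change 1.99, SE 0.21, adjusted p = 2.93e-06 for sterile against control). *cyp-35C1* had 1574, 1739.6 and 1058 in sterile, 328, 268 and 265 in fertile and 327, 255 and 397 in control adults (log2 fold change 2.15, SE 0.21, adjusted p = 1.73e-06). *cyp-35A3* and *cyp-35A5* had log2 fold changes of 2.02 and 2.22 (adjusted p = 2.44e-05 and 0.000142). *cyp-35D1*, whose product oxidizes the drug thiabendazole, had 90.001 ± 21.6 in sterile and 16.6 ± 5.17 in control adults (SD, n = 3; log2 fold change 2.39). *cyp-35A4* had 1.49 (adjusted p = 0.0164), a call that was lost when any of 4 libraries was left out, replicates 1 and 3 of sterile or 1 and 2 of control adults (adjusted p from 0.0554 to 0.0605). *cyp-35A1* was below the filter, at 7.97, 6.35 and 3.53 in sterile and 0, 0.758 and 2.16 in control adults. *cyp-35B1*, also known as *dod-13* from its regulation downstream of DAF-16, had 49.1, 49.2 and 14.1 in sterile, 10.9, 3.51 and 2.29 in fertile and 5.62, 0 and 3.60 in control adults. Its difference was built into the choice, because it passed the filter only through the sterile group.

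Among the 34A genes, 6 of 7 tested were higher in sterile than in control adults (median 1.71), of which *cyp-34A6* was lost without replicate 1 or 3 of either group (adjusted p up to 0.0924). *cyp-34A9*, also known as *dod-16*, had 843, 797 and 301 normalized counts in sterile F4L1starved adults, 138, 111 and 45.8 in fertile F4L1starved adults and 56.2, 72.7 and 84.3 in control adults (log2 fold change 3.05, SE 0.43, adjusted p = 3.78e-05 for sterile against control). Replicate 3 of the sterile adults was the lowest of its group but still above all other adult libraries. *cyp-34A8* had 736 ± 67.1 in sterile and 248 ± 22.4 in control adults (SD, n = 3; log2 fold change 1.57, adjusted p = 1.60e-06). *cyp-34A10* did not pass against control adults (log2 fold change 1.71, SE 0.93, adjusted p = 0.105), although edgeR called it (adjusted p = 0.0378). All 4 tested genes of 14A were higher (median 2.31). *cyp-14A3* had 171, 119.04 and 33.6 in sterile, 4.20, 1.75 and 0 in fertile and 2.81, 0.758 and 0 in control adults, the largest log2 fold change among the members tested (5.57, SE 0.81, adjusted p = 4.54e-05). With so few reads outside the sterile group, this size depends on the count added before taking logs. *cyp-14A3* passed the filter only through the sterile group, so its difference was built into the choice and its p-value is no support. Its neighbor *cyp-14A2* had 444, 297 and 185 in sterile, 89.8, 42.1 and 33.2 in fertile and 34.6, 41.7 and 31.7 in control adults (log2 fold change 2.98, SE 0.38, adjusted p = 1.43e-05).

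All 3 neighboring 25A genes, all 6 tested 33C genes and all 3 genes of 29A were higher too, with a median of 1.61 for 33C. In 29A, the call of *cyp-29A4* was lost without control replicate 3 or sterile replicate 1 (adjusted p up to 0.0858). *cyp-25A1* had 1941, 1044 and 838 normalized counts in sterile F4L1starved adults, 333, 242 and 176.5 in fertile F4L1starved adults and 285, 278 and 241 in control adults (log2 fold change 2.15, SE 0.29, adjusted p = 2.23e-05). *cyp-25A2* and *cyp-29A2* were higher by 1.23 and 1.88 on the log2 scale (adjusted p = 0.000175 and 5.89e-06). *cyp-29A3* and *cyp-33E2*, which take part in making eicosanoids from polyunsaturated fatty acids, were higher by 1.19 and 1.49 (adjusted p = 0.000607 and 0.000178). Of the single-gene CYP4-like subfamilies, *cyp-32B1* had 154, 84.1 and 49.5 in sterile and 8.43, 15.2 and 10.1 in control adults, groups that lay well apart (log2 fold change 2.87, SE 0.41, adjusted p = 3.69e-05). *cyp-36A1*, which acts in the hypoxia pathway of EGL-9 and HIF-1, had 273 ± 116 in sterile and 128 ± 5.82 in control adults (SD, n = 3; log2 fold change 0.99, SE 0.31, adjusted p = 0.0115). Of the 5 tested 13A genes, *cyp-13A10* and *cyp-13A2* were higher and the other three did not pass, *cyp-13A12* among them (log2 fold change 0.54, SE 0.55, adjusted p = 0.377). The call of *cyp-13A10* was lost without replicate 1 of control or of sterile adults (adjusted p up to 0.0758).

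**Figure D2:**
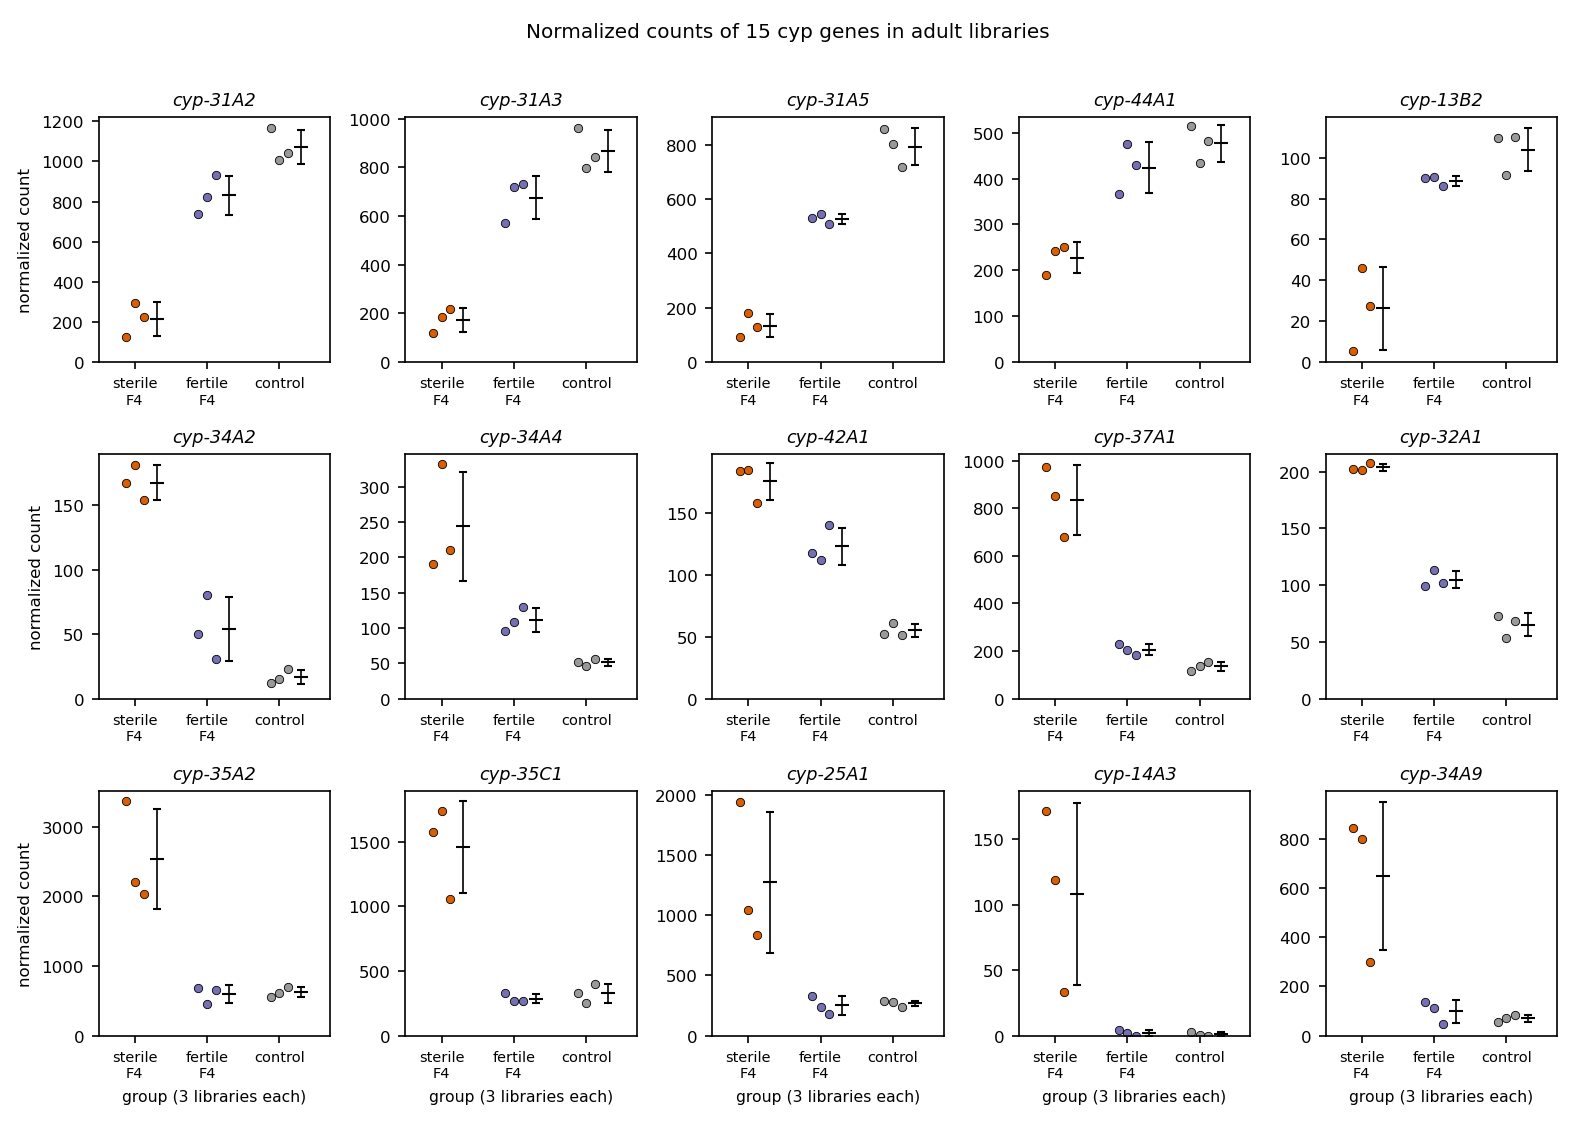
Normalized counts (vertical axes, linear, from 0) of 15 *cyp* genes in the 3 libraries of sterile F4L1starved, fertile F4L1starved and control adults (points), with the mean and SD of each group beside them. In the first 5 genes the sterile libraries lie below all others, in the other 10 above all others, and *cyp-34A2*, *cyp-34A4*, *cyp-42A1*, *cyp-37A1* and *cyp-32A1* are also higher in fertile than in control adults.

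Other tissue markers moved as well, where 41.3% of all genes were higher and 41.8% lower. Of 7 muscle genes, 7 were higher in sterile F4L1starved than in control adults (median 1.38, sums of 299282 to 358907 in sterile and 117983 to 130087 in control adults). Of 6 yolk protein genes of the adult intestine, 6 were higher (median 1.40), and of 8 neuron genes, 6 were higher and 2 lower. Of 12 other intestine genes, 5 were higher and 7 did not pass (median 0.48, sums of 51801 to 63538 in sterile and 34783 to 40463 in control adults). The part of tissue content in the higher members was not tested. Scaling with TMM in place of the authors' size factors moved the median of all genes by 0.18 (log2) in this comparison and left 40 members higher and 5 lower.

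Sterile and fertile F4L1starved adults were of the same starved generation and were told apart by their eggs. Of 52 members tested, 35 were higher and 6 lower in sterile animals, where 78.4% of all genes passed, 38.8% as higher and 39.6% as lower. The median log2 fold change was 1.17 over the tested members and 0.10 over all genes tested. Values did not overlap for 40 members, where 78.5% of all genes had this. The 6 lower members had the same names as those against control adults, and both comparisons share the sterile libraries. Here too *cyp-13B1* was lost by edgeR (adjusted p = 0.0764) and DESeq2 (0.0873), which called 5 lower members each, with only the groups compared (0.0738), and without replicate 1 or 2 of fertile or 2 or 3 of sterile animals (up to 0.139). *cyp-35A3* had 367, 363 and 206 normalized counts in sterile and 63.8, 58.8 and 43.5 in fertile F4L1starved adults (log2 fold change 2.44, SE 0.27, adjusted p = 1.30e-05), and *cyp-35C1* had 2.31 (adjusted p = 4.72e-06). In this comparison *cyp-34A10* passed (log2 fold change 2.50, SE 0.93, adjusted p = 0.027), but not without replicate 1 or 2 of the sterile or replicate 3 of the fertile animals (adjusted p from 0.0729 to 0.108). Like *cyp-14A3* and *cyp-35B1*, it passed the filter only through the sterile group, so its difference was built into the choice here too. With the replicate number as a block, *cyp-13A2* (adjusted p = 0.00758) and *cyp-14A5* (0.00884) also passed, which gave 37 higher members.

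Fertile F4L1starved adults differed from control adults in few members. Of 52 tested, 5 were higher and 0 lower, with 10 at an unadjusted p below 0.05, where 21.9% of all genes passed, 9.86% as higher and 12% as lower. The share of members called (9.62%) was thus below that of all genes. edgeR called 7 higher and 0 lower members and DESeq2 6 higher and 1 lower. The median log2 fold change was 0.32 over the tested members and -0.11 over all genes. With TMM scaling, which moved the median of all genes by 0.13, 7 members were higher and 0 lower, and all genes split into 1746 higher and 824 lower, against 1323 higher and 1613 lower before. Values did not overlap between the groups for 19 members, where 51.1% of all genes had this.

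The 5 higher members belonged to the 34A, 32A, 37A and 42A subfamilies. *cyp-42A1* had 183, 184 and 158 normalized counts in sterile F4L1starved, 118, 111 and 139.8 in fertile F4L1starved and 52.4, 61.4 and 51.2 in control adults. The 3 groups did not overlap (log2 fold change 1.14, SE 0.18, adjusted p = 0.00275 for fertile against control). *cyp-34A4* had 189.9, 332 and 210.2 in sterile, 95.7, 109 and 129 in fertile and 51.5, 46.2 and 56.2 in control adults, again without overlap (log2 fold change 1.10, SE 0.23, adjusted p = 0.00939 for fertile against control). *cyp-34A2* had 167, 181 and 154 in sterile, 50.4, 80.7 and 30.9 in fertile and 12.2, 15.2 and 23.1 in control adults (log2 fold change 1.57, SE 0.35, adjusted p = 0.0111), a call that was lost without control replicate 1 (adjusted p = 0.0539). All 5 were higher again in sterile than in fertile animals, by 1.71 (*cyp-34A2*), 1.09 (*cyp-34A4*), 2.00 (*cyp-37A1*), 0.96 (*cyp-32A1*) and 0.51 (*cyp-42A1*) on the log2 scale, where the fertile libraries are shared by both comparisons. The last of these calls was lost without replicate 1 or 2 of either group (adjusted p up to 0.0761).

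*cyp-37A1* and *cyp-32A1* had smaller differences. *cyp-37A1* had 975, 851 and 678 normalized counts in sterile F4L1starved, 229, 205 and 183 in fertile F4L1starved and 116, 137 and 153 in control adults (log2 fold change 0.60, SE 0.17, adjusted p = 0.0309 for fertile against control; 2.61 for sterile against control, adjusted p = 2.67e-07). The call in fertile animals was lost without replicate 1 or 2 of either group (adjusted p from 0.0712 to 0.132). *cyp-32A1* had 105 ± 7.47 in fertile F4L1starved and 65.1 ± 10.1 in control adults (SD, n = 3; log2 fold change 0.69, SE 0.18, adjusted p = 0.0228), lost without control replicate 2 (adjusted p = 0.0944), control replicate 3 (0.0509) or fertile replicate 2 (0.0656). The counts of members called were 3 without control replicate 1, control replicate 2 or fertile replicate 2, and 10, 6 higher and 4 lower, without sterile replicate 1. The 4 lower ones were *cyp-31A2*, *cyp-31A3*, *cyp-31A5* and *cyp-25A2*, with log2 fold changes of -0.37, -0.37, -0.59 and -0.50 that did not pass with all libraries in limma (adjusted p = 0.276, 0.195, 0.0553 and 0.104). Of these, *cyp-31A5* also passed as lower with all libraries by DESeq2 (adjusted p = 0.0121), where it is the 1 lower member, with the replicate block (0.0478) and with a mean of at least 50 (0.0461). None of the 4 tested 35A genes passed in fertile animals.

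In L1 larvae, P450 levels followed another order. The summed normalized count of all members was 49648 ± 4603 in F4L1starved + 3fed larvae without food and 38341 ± 2878 with food, and 51914 ± 3727 in control larvae without food and 38019.7 ± 1739.8 with food (SD, n = 3). In each line the 3 libraries without food lay above the 3 with food (exact two-sided permutation test, p = 0.1, the smallest possible). Per kilobase of coding sequence, the members with the highest mean level over L1 larvae were *cyp-13A12*, *cyp-13A5*, *cyp-33C8*, *cyp-35C1* and *cyp-14A5*, then *cyp-25A3*, *cyp-35A3*, *cyp-33C7*, *cyp-35A2* and *cyp-13B1*. *cyp-13A12*, which acts on polyunsaturated fatty acids after hypoxia and reoxygenation, had 5156, 5719.5 and 5988 normalized counts in control larvae without food and 3412, 2712 and 3253 with food. It was near the filter in adults, at 4.68, 13.6 and 10.8 in control animals. On the per-kilobase scale, 35A made up 5.28% of the summed level without food and 14.1% with food in control larvae, and 35C 2.37% and 9.50%.

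Food changed most members in control L1 larvae. Of 73 members tested of 74, 41 were higher and 11 lower without food (limma, adjusted p below 0.1), where 58.1% of all genes passed, 27.6% as higher and 30.5% as lower. The median log2 fold change was 0.72 over the tested members and 0.04 over all genes tested. Values did not overlap for 55 members, where 58.3% of all genes had this. The 41 higher members included 9 of 11 genes of 13A, 9 of 11 of 33C, 8 of 8 of 34A, 4 of 5 of 14A and 4 of 5 of 25A. Of the 14A genes, *cyp-14A3* passed the filter only through the unfed groups, so its difference was built into the choice. The 11 lower ones included 4 of 5 genes of 35A, *cyp-35C1*, *cyp-35D1* and *cyp-36A1*. Groups without and with food differ in the hour of collection too, and food and hour cannot be told apart.

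The members with the largest increases without food were the CYP4-like genes *cyp-37B1* and *cyp-32B1*. *cyp-37B1* had 1443, 1427 and 922 normalized counts in control larvae without food and 14.9, 70.3 and 8.75 with food (log2 fold change 5.80, SE 0.50, adjusted p = 2.47e-07). In F4L1starved + 3fed larvae it had 988, 984 and 894 without food and 19.7, 17.0 and 9.97 with food (log2 fold change 5.90, SE 0.50, adjusted p = 2.07e-07). Replicate 2 of the fed control larvae was the highest fed library and still far below every library without food. *cyp-32B1* had 986, 893 and 693 in control larvae without food and 32.2, 69.3 and 48.6 with food (log2 fold change 4.12, SE 0.23, adjusted p = 3.99e-09), and 870.2, 844 and 816 without food, against 35.02, 29.5 and 34.1 with food, in F4L1starved + 3fed larvae (log2 fold change 4.64, SE 0.23, adjusted p = 2.01e-09). *cyp-37B1* was below the filter in adults. *cyp-37A1* had 1523, 1537 and 1325 in control larvae without food and 547, 567 and 429.7 with food (log2 fold change 1.51, SE 0.13, adjusted p = 2.90e-07).

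Among the higher members, genes of the 14A and 34A subfamilies came next in control larvae. *cyp-14A4* had 601, 544 and 627 normalized counts in control larvae without food and 89.2, 69.3 and 77.8 with food (log2 fold change 2.90, SE 0.19, adjusted p = 1.81e-08). *cyp-34A10* had 247, 561 and 517 without food and 68.1, 80.05 and 41.8 with food in control larvae (log2 fold change 2.75, SE 0.31, adjusted p = 2.94e-06), and 296, 509.6 and 401 without food, against 33.9, 29.5 and 35.7 with food, in F4L1starved + 3fed larvae. *cyp-34A7*, another gene of the same run, had 1672 ± 347 without food and 295 ± 28.7 with food in control larvae (SD, n = 3; log2 fold change 2.48). *cyp-34A2* had 104, 79.2 and 57.3 without food and 17.3, 6.83 and 12.6 with food (log2 fold change 2.65, SE 0.36, adjusted p = 2.27e-05). None of these groups overlapped. The abundant genes changed less: *cyp-33C8* had 4296, 4881 and 5408 without food and 2488, 2263 and 2098 with food (log2 fold change 1.09, SE 0.13, adjusted p = 6.46e-06), *cyp-25A3* had a log2 fold change of 1.13, *cyp-13A12* of 0.85 and *cyp-13A5* of 0.75 (adjusted p = 2.21e-05, 0.00012 and 0.0031).

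**Figure D3:**
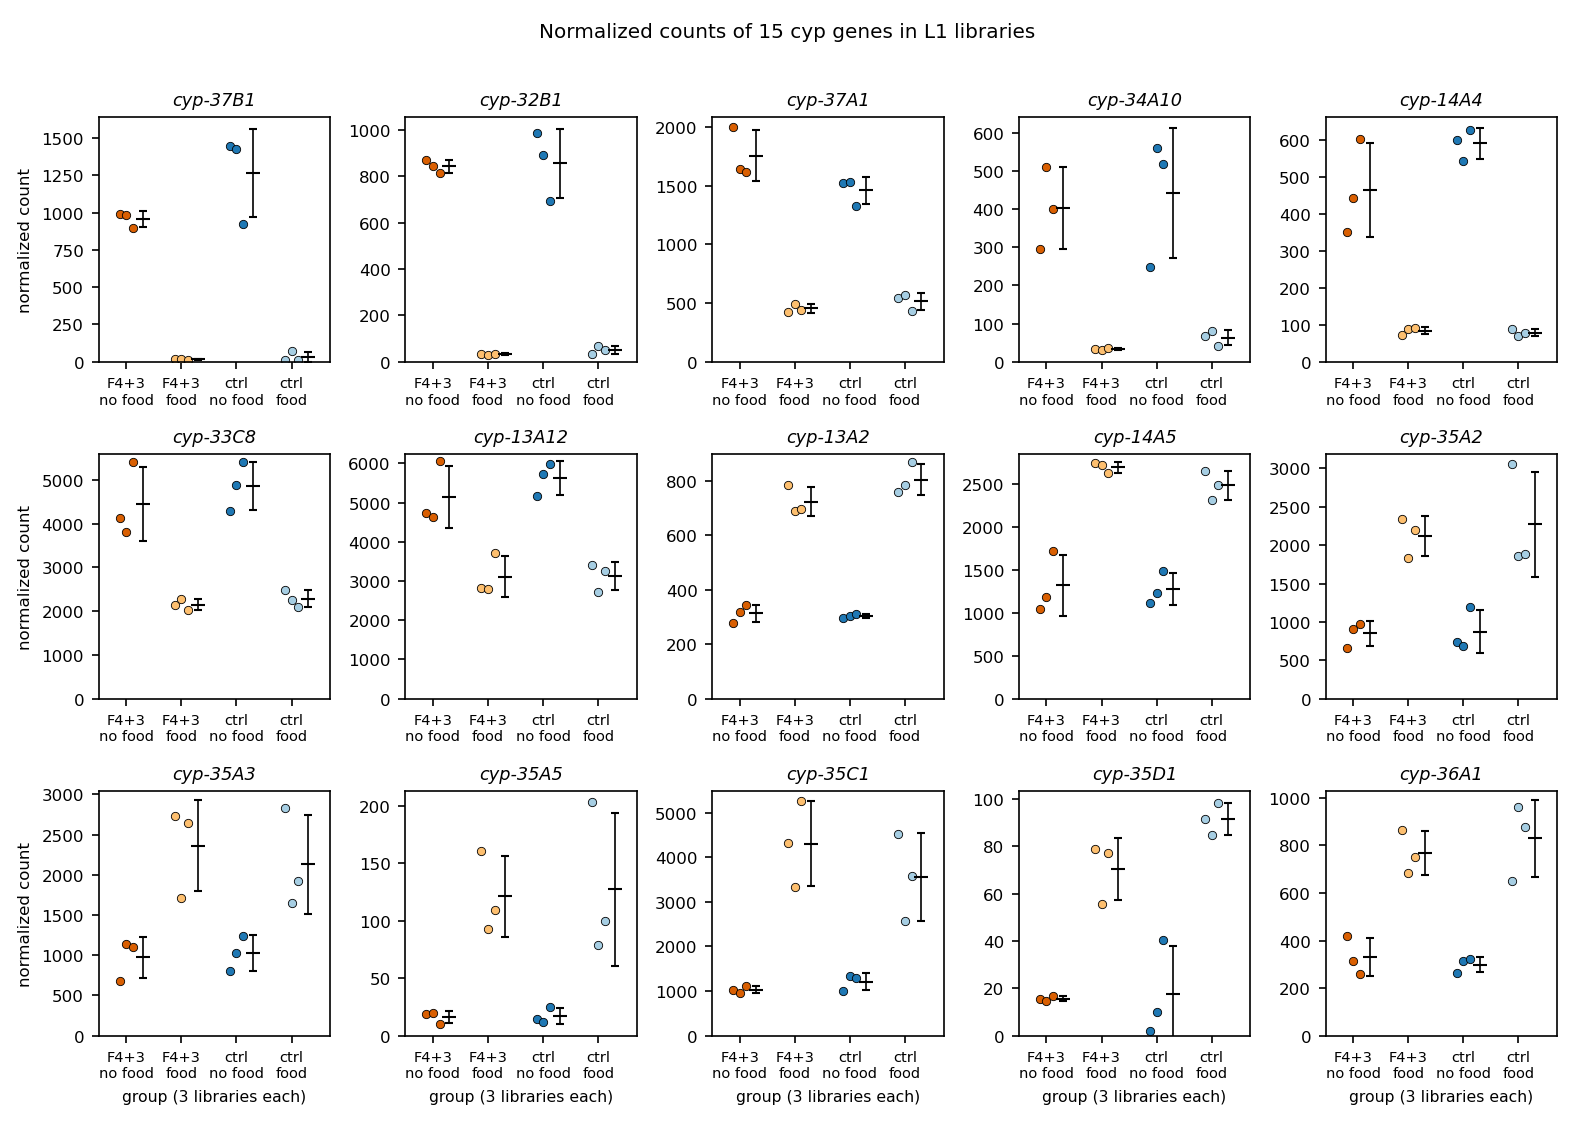
Normalized counts (vertical axes, linear, from 0) of 15 *cyp* genes in the 3 libraries of each L1 group (points), F4L1starved + 3fed (F4+3) without and with food and control (ctrl) without and with food, with the mean and SD beside them (the SD bar of *cyp-35D1* in control larvae without food is cut off at 0). *cyp-37B1* to *cyp-13A12* are higher without food in both lines, and *cyp-13A2* to *cyp-36A1* are lower.

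The members that were lower without food were led by the 35 family. *cyp-35A5* had 14.4, 12.04 and 25.4 normalized counts in control larvae without food and 203, 79.1 and 100.1 with food (log2 fold change -2.76, SE 0.39, adjusted p = 2.69e-05), and 18.5, 19.5 and 10.4 without food, against 161, 93.0 and 109.7 with food, in F4L1starved + 3fed larvae. *cyp-35C1* had 993, 1346 and 1289 without food and 4532, 2565 and 3590.1 with food in control larvae (log2 fold change -1.53, SE 0.19, adjusted p = 1.07e-05). *cyp-35A2* had 741, 685 and 1191 without food and 3060.5, 1865 and 1881 with food (log2 fold change -1.38, SE 0.22, adjusted p = 0.000108). In all 3 genes the unfed libraries lay below all fed ones. *cyp-35A1* and *cyp-35A3* had log2 fold changes of -2.11 and -1.04 (adjusted p = 0.00438 and 0.0022). *cyp-35D1* had 1.92, 10.03 and 40.4 without food, with a wide spread, and 91.7, 84.9 and 98.2 with food (log2 fold change -3.07, SE 0.63, adjusted p = 0.000823). *cyp-35A4* was the exception within 35A, at 677, 778 and 852 without food and 808, 637 and 639.7 with food in control larvae (log2 fold change 0.15, SE 0.16, adjusted p = 0.468). *cyp-35B1* did not pass either (log2 fold change 0.71, SE 0.59, adjusted p = 0.328).

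Outside the 35 family, *cyp-36A1*, *cyp-13A2* and *cyp-14A5* were lower without food. *cyp-36A1* had 262, 314 and 321 normalized counts in control larvae without food and 650.2, 963 and 876 with food (log2 fold change -1.46, SE 0.18, adjusted p = 9.54e-06). *cyp-13A2* had 296, 304 and 310.2 without food and 758, 785 and 868 with food (log2 fold change -1.40, SE 0.12, adjusted p = 2.04e-07). It is the first gene of the run of 7 neighboring 13A genes, of which 5 were higher without food and *cyp-13A8* at the other end did not pass in control larvae. *cyp-14A5* had 1118, 1231 and 1484 without food and 2655, 2317 and 2489.6 with food (log2 fold change -0.97, SE 0.16, adjusted p = 9.96e-05), while the other four 14A genes were higher. The calls of *cyp-13B1* and *cyp-33D1* as lower each depended on single libraries: *cyp-13B1* (log2 fold change -0.46) was lost without replicate 1 or 3 of the unfed or replicate 2 of the fed control larvae (adjusted p from 0.113 to 0.226). *cyp-33D1* was lost without replicate 1 or 2 of the unfed or replicate 2 or 3 of the fed control larvae (adjusted p up to 0.212).

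In F4L1starved + 3fed larvae, 45 of 73 members tested were higher and 12 lower without food, where 57.5% of all genes passed, 27.1% as higher and 30.4% as lower (median log2 fold change 0.75 over the tested members and 0.02 over all genes). Values did not overlap for 53 members, where 59.3% of all genes had this. These libraries are separate from those of control larvae. Between the 2 lines, 40 members were higher in both, 9 were lower in both, 0 were called in opposite directions and 13 passed in neither. Of all 15902 genes tested, 21.4% were higher in both lines, 26.97% lower in both and 32.8% passed in neither, and 8 genes were called in opposite directions. The median absolute difference between the log2 fold changes of the 2 lines was 0.25. *cyp-14A3* had 32.4, 42.3 and 65.0 normalized counts without food and 5.47, 5.37 and 1.66 with food in F4L1starved + 3fed larvae (log2 fold change 3.26, SE 0.58, adjusted p = 0.000267), and 9.59, 27.1 and 17.9 without food, against 2.48, 8.79 and 1.94 with food, in control larvae (1.94, adjusted p = 0.0121). In larvae *cyp-14A3* passed the filter only through the unfed groups, so its difference was built into the choice and its p-values are no support. *cyp-35C1* had a log2 fold change of -2.04 and *cyp-35D1* of -2.09 (adjusted p = 5.89e-07 and 0.0119). *cyp-35A4* passed as lower in this line only at the edge (log2 fold change -0.34, SE 0.16, adjusted p = 0.0985), and was lost by edgeR (0.125) and DESeq2 (0.123) and without any of 9 of the 12 L1 libraries, of which replicate 3 of fed F4L1starved + 3fed larvae mattered most (0.378). *cyp-33E2* passed as higher (log2 fold change 0.48, SE 0.17, adjusted p = 0.0259) and was lost without fed replicate 2 (0.104) or unfed replicate 3 (0.139) of the same line. *cyp-13B2*, at 27.8, 13.03 and 25.7 without food and 2.19, 10.7 and 9.97 with food, passed as higher (log2 fold change 1.57, SE 0.56, adjusted p = 0.0286) and was lost without fed replicate 1 (0.143).

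**Figure D4:**
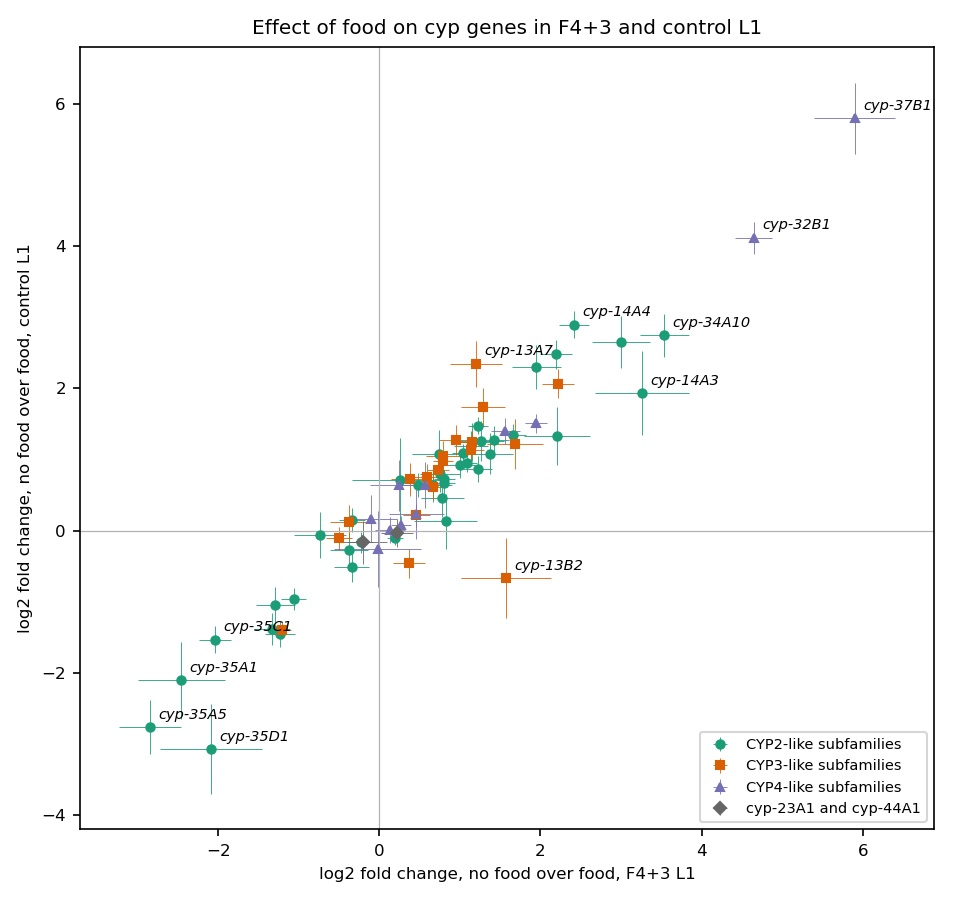
Log2 fold change of no food over food for the 73 *cyp* genes tested in L1 larvae, in F4L1starved + 3fed larvae (horizontal axis) and in control larvae (vertical axis), with bars of 1 SE from limma and symbols by likeness of the subfamily. The points run along the diagonal from *cyp-35A5* (-2.84 and -2.76) to *cyp-37B1* (5.90 and 5.80), and *cyp-13B2* (1.57 and -0.67) lies farthest from it.

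Ancestral starvation itself moved no member past the threshold in L1 larvae. With food, 0 of 73 members tested passed between F4L1starved + 3fed and control larvae (limma; 4 at an unadjusted p below 0.05, 0 by edgeR and 0 by DESeq2), where 0.0126% of all genes passed by limma and 1.36% by DESeq2. Without food, 0 passed (2 at an unadjusted p below 0.05, 0 by edgeR and 0 by DESeq2), where 0% of all genes passed by limma and 0.302% by DESeq2. Values did not overlap for 7 members with food and 8 without, where 12.8% and 10.6% of all genes had this. The members nearest to the threshold with food were *cyp-34A10*, at 33.9, 29.5 and 35.7 normalized counts in F4L1starved + 3fed larvae and 68.1, 80.05 and 41.8 in control larvae (log2 fold change -0.87, SE 0.31, adjusted p = 0.399), and *cyp-34A8*, at 237, 269 and 243 in F4L1starved + 3fed larvae and 268, 358 and 334 in control larvae (log2 fold change -0.35, SE 0.15, adjusted p = 0.501). The groups did not overlap for *cyp-34A10* and did for *cyp-34A8*. The difference of the food effect between the lines passed for 0 members (limma; 4 at an unadjusted p below 0.05, 0 by edgeR and 0 by DESeq2; 0% of all genes by limma and 0.107% by DESeq2). The largest such difference was that of *cyp-13B2*, at 2.24 on the log2 scale (SE 0.79, adjusted p = 1). A p above the threshold does not show that the lines had equal levels.

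The comparison of sterile F4L1starved with control adults and that of unfed with fed control larvae share no library. Of 51 members tested in both tables, 31 passed in both comparisons: 22 were higher in both, 8 were higher in sterile adults and lower in unfed larvae, and 1, *cyp-13B1*, was lower in both. Each of the *cyp-13B1* calls was lost with single libraries left out, and the adult one also by edgeR, by DESeq2 and with TMM scaling. In F4L1starved + 3fed larvae its log2 fold change was 0.37 and did not pass. Of 11633 genes tested in both tables, 52.2% passed in both comparisons, against 60.8% of the members, so joint calls as such do not set the members apart. Among all these genes, 15.8% were higher in both, 8.36% higher in sterile adults and lower in unfed larvae, and 23.9% lower in both. The 22 included 3 genes each of 14A and 25A, 5 each of 33C and 34A, *cyp-32A1*, *cyp-32B1* and *cyp-37A1*. Of these, *cyp-14A3* passed the adult filter only through the sterile group and the L1 filter only through the unfed groups. The 8 with opposite directions were *cyp-35A2*, *cyp-35A3*, *cyp-35A5*, *cyp-35C1*, *cyp-35D1*, *cyp-36A1*, *cyp-13A2* and *cyp-14A5*. The calls of the last pair in sterile adults were lost with single libraries left out, replicate 1 of control or 3 of sterile adults for *cyp-13A2* (adjusted p up to 0.113), and replicate 2 or 3 of control or 1 or 2 of sterile adults for *cyp-14A5* (up to 0.1004). The 3 genes of 31A, lower in sterile adults, had no call in unfed control larvae, where they were low (35.7 ± 15.7 normalized counts of *cyp-31A2* without food and 29.4 ± 8.83 with food; SD, n = 3).

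**Figure D5:**
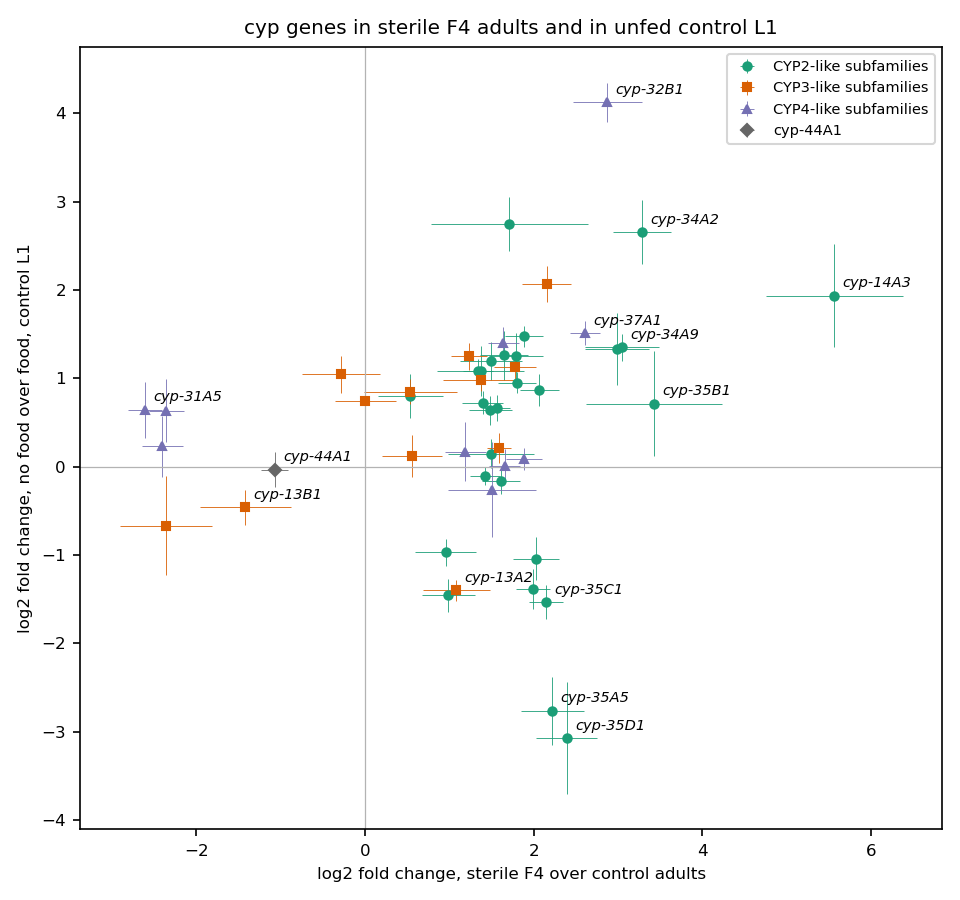
Log2 fold change of sterile F4L1starved over control adults (horizontal axis) and of no food over food in control L1 larvae (vertical axis) for the 51 *cyp* genes tested in both tables, with bars of 1 SE from limma and symbols by likeness of the subfamily. Most points lie in the upper right, *cyp-35A5* (2.22 and -2.76) and *cyp-35D1* (2.39 and -3.07) in the lower right, and *cyp-31A5* (-2.61 and 0.64) on the left.

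Of the members that lie in runs of neighbors, 37 were tested in L1 larvae, and 30 were higher and 4 lower without food in control larvae, against 11 higher and 7 lower of the 36 tested members outside runs. In sterile against control adults, 21 of 26 members in runs were higher and 0 lower, against 19 higher and 6 lower of 26 outside runs. Over all tested members, 56.2% were higher without food in control larvae and 76.9% in sterile adults. Over all genes tested, these shares were 27.6% and 41.3%. Whether members in runs differ from the others was not tested. In control larvae, 6 of 6 genes of the 34A run, 5 of 5 of the 33C run, 3 of 3 of the 25A run and 3 of 3 of the 14A run on chromosome X were higher without food. In sterile against control adults, the tested genes of these runs that passed were 4 of 5, 4 of 4, 3 of 3 and 3 of 3, all higher. In the 13A run of 7 genes 1 of 3 passed, as higher. *cyp-14A3* and *cyp-35B1*, which lie in runs, passed the adult filter only through the sterile group. In larvae, *cyp-14A3* passed it only through the unfed groups. Beside the 13A run, the run of *cyp-35A5*, *cyp-35B1*, *cyp-35B2* and *cyp-35B3* was mixed in larvae, where *cyp-35A5* was lower without food in control larvae and neither tested 35B gene passed. In the run of *cyp-35A1* and *cyp-35A2*, 2 of 2 genes were lower without food. Neighbors of a run are relatives by sequence, and how reads with several matches were counted is not stated.

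Some genes around the P450 enzymes changed with food as well. Of all genes, 58.1% passed with food in control larvae and 83% in sterile against control adults. *emb-8*, the reductase gene, had 40704, 54611 and 60024 normalized counts in control larvae without food and 18723, 22087 and 22808 with food (log2 fold change 1.27, SE 0.14, adjusted p = 3.15e-06), and 53029.6, 45007 and 48078 without food, against 22224, 22636 and 19837 with food, in F4L1starved + 3fed larvae (1.17, adjusted p = 6.86e-06). All unfed libraries lay above all fed ones. In adults it had 3019 ± 396 in sterile F4L1starved and 2992 ± 47.7 in control animals (SD, n = 3; log2 fold change 0.00, SE 0.11, adjusted p = 0.971). The cytochrome b5 genes, coding for another electron carrier, went apart in control larvae, *cytb-5.2* higher (0.66) and *cytb-5.1* lower (-0.63) without food, and *cytb-5.1* was higher in sterile than in control adults (0.89). *daf-9*, the P450 gene that makes dafachronic acid for the receptor DAF-12, did not pass in control larvae without food (log2 fold change 0.36, SE 0.23, adjusted p = 0.196) or in sterile adults (log2 fold change 0.40, SE 0.39, adjusted p = 0.352). Of 7 genes of dafachronic acid synthesis and its receptor, 1 was higher and 3 lower without food in control larvae, the oxygenase gene *daf-36* at -1.11 and *dhs-16* at -1.51. Of 6 in adults, 3 were higher in sterile than in control animals, *dhs-16* at 2.05 and *daf-12* at 1.29. *dhs-16*, a short-chain dehydrogenase gene, also passed as higher in fertile F4L1starved adults (log2 fold change 2.32, SE 0.68, adjusted p = 0.0333).

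Of 19 genes that regulate P450 genes, 8 were higher and 4 lower without food in control larvae, where 58.1% of all genes passed. The higher ones included *wdr-23* (0.91), *daf-16* (0.74), the Mediator subunit gene *mdt-15* (0.64) and *sbp-1* (0.46). The intestinal factor *elt-2* (-0.93) was among the lower ones. In sterile against control adults 4 were higher and 7 lower, where 83% of all genes passed, with *hif-1* (0.97), *nhr-80* (1.51), *nhr-66* (-1.40) and *skn-1* (-0.90) among them. Calls as such thus do not set the regulators apart. *nhr-176*, a receptor gene that *cyp-35D1* is known to need for its induction by thiabendazole, was higher in sterile adults (1.16) and in unfed control larvae (0.56), while *cyp-35D1* was higher in the first and lower in the second. Of the genes of heme trafficking, 4 of 6 were higher in sterile than in control adults, and 2 of 7 were higher and 3 lower in unfed control larvae, among them *hrg-4* (1.49 in sterile adults and -1.14 in unfed larvae), a heme importer of the intestine.

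Tissue markers also moved with food, where 58.1% of all genes passed in control and 57.5% in F4L1starved + 3fed larvae. Of 12 intestine genes, 3 were higher and 9 lower without food in control larvae (median -0.85, sums of 390047 to 420861 without food and 548894 to 703678 with food), and 3 higher and 7 lower in F4L1starved + 3fed larvae. Of 6 tested hypodermis genes, 6 were lower in both lines (median -4.50 in control larvae). Of 7 muscle genes, 4 were higher in both lines. Their part in the lower 35 family members or in the higher members was not tested.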

How the data were processed

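RNA of 21 whole-animal libraries (7 groups, 3 libraries each) was measured. Per the study's methods, the authors mapped reads to WS220 with Subread, assigned them to genes with featureCounts and normalized them with DESeq2; versions are not given in the sources used here. The deposited values are DESeq2-normalized counts per library, a signal per gene in which the authors divided reads by a size factor. The tables also hold the authors' mean per gene, log2 fold changes, p-values and adjusted p-values of their comparisons, which were not used. Left out were 3 of 17723 deposited adult rows and 1 of 23185 deposited L1 rows, because cells were shifted or filled. Each library's values were divided by its smallest step to give back whole reads (100% of values whole within 0.1); for 7 adult libraries and control L1 replicate 2 without food no separate check covers this, which bears on edgeR and DESeq2 results.

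Comparisons used limma 3.58.1 in R 4.3.3 (intensity trend, all groups of a table in 1 fit) on log2 values after adding 1, with genes kept at a mean of 10 or more normalized counts and Benjamini-Hochberg adjustment over all genes tested; adjusted p-values come from limma where no other tool is given. Thresholds were 0.05 in adults and 0.1 in L1 larvae. Exact permutation tests used SciPy 1.17.1. Alternatives were a pseudocount of 0.5, no filter, a mean of at least 50, TMM scaling, the replicate number as a block, edgeR 4.0.16 and DESeq2 1.42.0 on recovered reads, only the groups compared, and each library left out. Same-numbered libraries deviated together in sterile and fertile F4L1starved adults (correlations from 0.17 to 0.38), and in no other pair of groups did all 3 pass 0.1. The main test of sterile against fertile adults did not use this pairing. The block setting fitted replicate terms to all libraries of a table, controls included, so it is no paired test of these groups alone. Libraries of a group differed by more than counting error (chi-square per gene of at least 6.47). The fit was also run on simulated data with a single fixed spread and few changed genes. These settings differ from the data, so that run checked the code and not the error rates here.

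Members were matched by name. Levels per kilobase used the longest coding sequence in the Ensembl annotation of WBcel235, another build than WS220, which served for no coordinates. Named genes are the members past the threshold (the 6 highest and 6 lowest where more than 12 passed), the 10 highest levels per kilobase in each table, and 15 members of known role; *cyp-13A8*, *cyp-13A10*, *cyp-29A4*, *cyp-33D1*, *cyp-34A6*, *elt-2* and *nhr-176* were named after their values were seen. From related lists *daf-9* and *emb-8* were always named, and others at most 4 per list. The members and lists were chosen with earlier results of these data known.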

Additional observations from a re-analysis of the deposited data

How the results depend on the processing

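Under 8 other settings and with each library left out, no named member that passed changed direction, and the count of members called stayed within 1.5 times in every comparison but fertile F4L1starved against control adults. There it was 10 (6 higher and 4 lower) with only the groups compared, and 3 to 10 with 1 library left out, against 5. With 1 library left out the counts ranged from 41 to 47 for sterile against control adults, 38 to 42 for sterile against fertile adults, 50 to 54 for unfed against fed control larvae and 51 to 57 in F4L1starved + 3fed larvae. The members called that passed in every alternative that tested them were 2 of 5, 39 of 46, 37 of 41, 50 of 52 and 48 of 57, in the order fertile against control, sterile against control, sterile against fertile, and unfed against fed in control and in F4L1starved + 3fed larvae. With the replicate number as a block, 6 members were called in fertile against control, 46 in sterile against control, 43 in sterile against fertile adults, 52 in control and 57 in F4L1starved + 3fed larvae. Apart from sterile and fertile F4L1starved adults, the numbers are not shown to pair the libraries. Without length scaling, 10 of the 10 highest members remained in each table, although *cyp-31A5* moved from rank 2 to 7 in adults. Depth limits members under 10 normalized counts, 20 in adults and 1 in L1 larvae.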

Other observations

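The gene listed as *dach-1* in the L1 table, the same WormBase gene as *cyp-34A4* of the adult table, had 135, 139 and 131 normalized counts in control larvae without food and 8.67, 20.5 and 3.89 with food (limma, log2 fold change 3.76 with an SE of 0.57, adjusted p = 6.08e-05). In F4L1starved + 3fed larvae it had 41.7, 143 and 98.8 without food and 17.5, 3.58 and 9.97 with food (log2 fold change 3.12, adjusted p = 0.000321). Unfed libraries lay above all fed ones in both lines, the direction of the 8 tested 34A genes.

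Of the 20 members below the filter in adults, all 20 had a mean of at least 10 in the L1 table. *cyp-33C6*, for example, was chosen after its values were seen, at 0.998 ± 1.16 normalized counts in control adults and 32.1 ± 9.42 in fed control larvae (SD, n = 3). The tables were normalized separately, so levels between them are side by side and not tested.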
